A study of Sus scrofa with 80 samples.

Results

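This comparison set the blood transcriptomes of pigs at the high end of a combined CD4+ and IFN-alpha measure against those at the low end. Its members were the 10 arrays whose titles name the CD4+ and IFN-alpha trait pair, 5 from the low group and 5 from the high group, of 80 arrays in the series. All 10 pigs were weaned, 35 days old and sampled from the anterior vena cava. CD4+ had been measured by flow cytometry and IFN-alpha with an immunological kit, and for each trait pair the submitters computed a value they call the self-product. The pigs were ranked on it, and those at the ends of the ranking formed the groups. The groups are therefore tails of a natural distribution, with no treatment, and they say nothing of whether CD4+, IFN-alpha or both set a pig's rank. The trait values themselves, and the pigs' breed, were not used here. Each array holds the RNA of 1 pig. The sample titles do not name the pigs, so arrays correlated above 0.99 were taken as the same pig. Correlations over the series left a gap there, from 0.9885 to 0.9936. No correlation between 2 of the 10 arrays exceeded 0.9862.

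CD4 is the co-receptor carried by helper T cells, which recognise peptides on class II MHC molecules and direct other immune cells through cytokines. IFN-alpha is a family of type I interferons, made in large amounts by plasmacytoid dendritic cells. It binds the receptor chains IFNAR1 and IFNAR2, and the kinases JAK1 and TYK2 then pass the signal through STAT2 and IRF9 to antiviral interferon-stimulated genes. Whole blood RNA mixes all circulating cells, so in these samples fewer cells of a type and less RNA per cell cannot be told apart.

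Values are RMA log2 expression levels, the difference is the mean of the high arrays minus that of the low arrays, and ± marks the SD over 5 arrays. Levels are compared between arrays, probe set by probe set. The deposited table holds 24123 probe sets. With 124 control probe sets set aside, 23999 were tested, of which 10069 carry 1 gene symbol, 198 several and 13732 none. The symbols cover 6765 genes, each read through its brightest probe set. The median tested probe set stood at 5.618. Markers of the cells that blood holds lay above that level, among them CD3E of T cells (8.97 ± 1.28 low, 9.45 ± 0.50 high), CD79B of B cells (9.20 ± 1.02 low, 9.60 ± 0.55 high), CD14 of monocytes (8.30 ± 1.46 low, 9.07 ± 0.58 high) and PPBP of platelets (9.97 ± 1.04 low, 10.99 ± 1.11 high).

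The arrays differed in ways that ran with the groups. EIF1AY, a translation factor gene of the Y chromosome in mammals, measured 7.52, 3.03, 2.73, 3.50 and 3.23 in low replicates 1 to 5 and 8.00, 7.47, 8.76, 7.47 and 8.02 in high replicates 1 to 5. All 5 high arrays and low replicate 1 had the higher level, and the other 4 low arrays had the lower one. EIF1AY class and group therefore cannot be told apart here except through low replicate 1. Differences given with EIF1AY as a covariate rest largely on that array. Low replicate 5 stood apart in another way: its median correlation with the other arrays was 0.9345, against 0.9634 to 0.9787 for the rest. The difference between the spike-in controls bioB and bioC split the arrays again, with low replicates 2 and 5 and high replicate 4 in the lower class. The higher class held 3 low and 4 high arrays, while the lower class, with 2 low arrays and 1 high array, was too small for a value of its own. The 3′ minus 5′ actin signal ran from 1.926 to 2.754 in the low arrays and from 1.497 to 2.857 in the high arrays. The part of these differences between arrays in the results was not tested. Sex is not among the labels used here, and a difference in sex between the groups cannot be told apart from the difference in the traits.

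**Figure D1:**
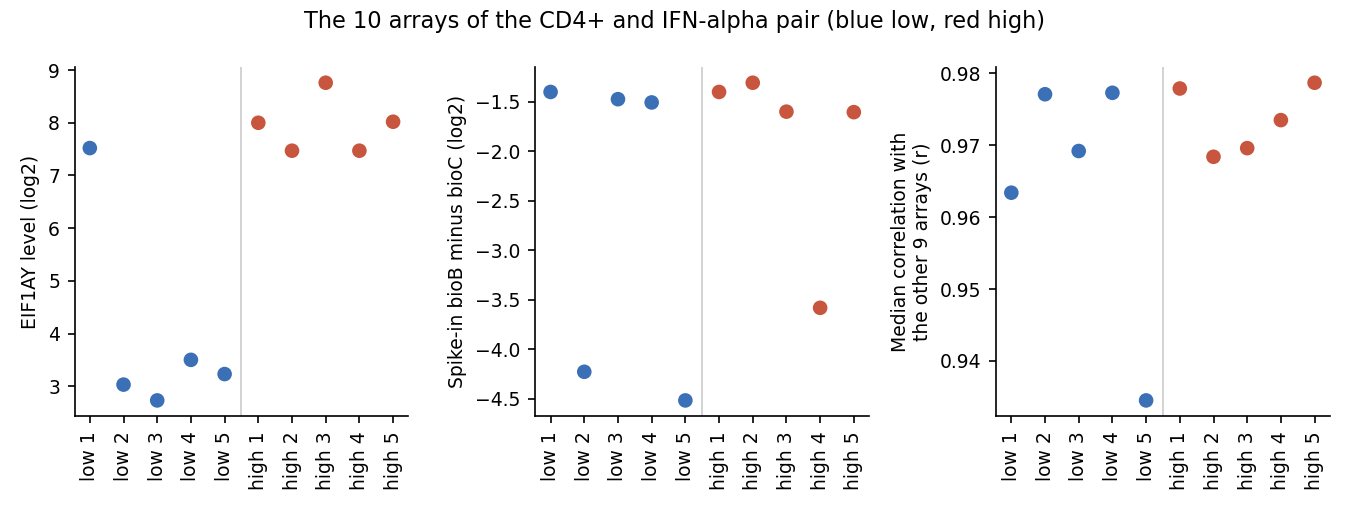
EIF1AY level (log2), the bioB minus bioC spike-in difference (log2) and each array's median correlation with the other 9 arrays of the pair, 1 point per array, low group in blue and high group in red. EIF1AY is above 7 in every high array and in low replicate 1 (7.52), the spike-in difference is lowest in low replicate 5 (-4.515), and the same array has the lowest median correlation (0.9345).

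No probe set passed limma's test at an adjusted p of 0.05 (0 of 23999, 0%). The smallest adjusted p was 0.971 and the smallest unadjusted p was 6.95e-05, so every gene named from here on missed the threshold and its values are given as a description. At an unadjusted p of 0.05, 929 probe sets differed (3.87%), 493 of them higher in the high group (2.05%) and 436 lower (1.82%). That balance turned with the processing, to 416 higher and 513 lower after a further quantile normalization and to 456 and 516 with trend and robust variance settings. Low and high arrays did not overlap for 121 probe sets (0.504%), 47 with the high group above (0.196%) and 74 with it below (0.308%). Over the 6765 genes, 261 differed (3.86%), 183 higher (2.71%) and 78 lower (1.15%) at that unadjusted p. The median difference over all genes was 0.02, and 54.0% of the genes measured higher in the high group. Over all 23999 probe sets the median was -0.01 and 47.3% measured higher. In simulated data of the same size, the test recovered 56 of 100 probe sets changed 2-fold and 93 of 100 changed 4-fold. The simulated noise was independent for each probe set and array, without the differences between arrays described above. These counts are therefore not the power of the comparison of real arrays.

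Among probe sets at or above the median level, 7 genes lay higher in all 5 high arrays than in any low array. Whatever their level, 9 of all genes did so (0.133%), and 16 lay lower in all 5 (0.237%). The first was WNK4, a kinase that controls salt transport in the kidney. It measured 5.45, 6.67, 6.27, 6.63 and 6.33 in the low arrays and 7.92, 7.33, 8.00, 7.05 and 7.57 in the high arrays. The lowest high array (7.05) was above the highest low array (6.67), and the 2.47-fold difference had a log2 value of 1.30 (SE 0.26; limma, unadjusted p = 3.4e-04, adjusted p = 0.971). It ranged from 1.10 to 2.13 over 22 other settings. ITGA2B, the platelet integrin chain that binds fibrinogen together with ITGB3, measured 9.26, 9.13, 9.21, 9.61 and 9.94 in the low arrays and 11.32, 10.18, 10.46, 10.11 and 10.34 in the high arrays. High replicate 1 was far above the other high arrays, and the difference was 1.05 (SE 0.24; 2.07-fold).

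The other 5 genes above in every high array differed less. GGA2, an adaptor that sorts cargo from the Golgi, was higher by 0.70 (SE 0.20), and GSE1, a component of corepressor complexes, by 0.59 (SE 0.16). The other 2 GSE1 probe sets differed by 0.07 and 0.63. PUS1, which places pseudouridine in transfer RNA, was higher by 0.63 (SE 0.22), but a second PUS1 probe set differed by only 0.04. The actin regulator FHOD1 was higher by 0.43 (SE 0.14). EI24, a protein of autophagy, was higher by 0.35 (SE 0.14), and its other 2 probe sets were also higher, by 0.36 and 0.53.

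The lower side held 7 genes by the same rule, led by PLIN2, a protein that coats lipid droplets. PLIN2 measured 6.14, 6.36, 6.24, 6.20 and 6.72 in the low arrays and 5.66, 5.56, 5.80, 5.82 and 5.77 in the high arrays. The high arrays were closely grouped and below every low array, and the difference was -0.61 (SE 0.14; 1.53-fold lower). CWC15, a spliceosome protein, measured 9.37, 9.40, 10.03, 9.62 and 9.84 in the low arrays and 8.66, 8.67, 8.16, 9.35 and 9.23 in the high arrays. Its difference was larger, -0.83 (SE 0.23), but high replicate 4 (9.35) nearly reached low replicate 1 (9.37). CCZ1, which takes part in endosome maturation, differed by -0.37 (SE 0.12), and TAS1R3, a subunit of sweet and umami taste receptors, by -0.40 (SE 0.14). TMEM185B (-0.30), PAQR6 (-0.31) and DAZAP2 (-0.22) made up the rest, and a second DAZAP2 probe set differed by only -0.02.

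**Figure D2:**
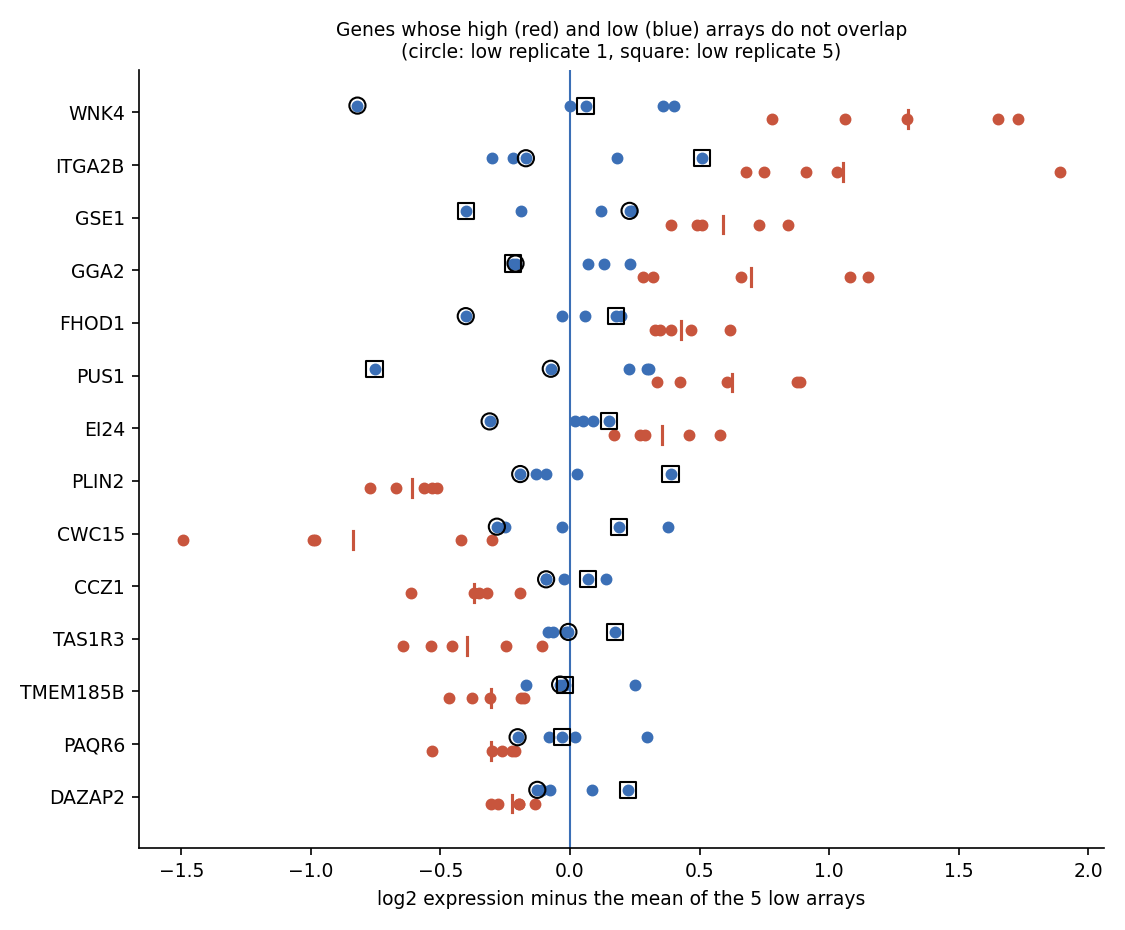
Log2 expression of the 14 genes named for non-overlapping groups, each array set against the mean of the 5 low arrays of that gene, with low arrays in blue, high arrays in red and a short red bar at the high mean. WNK4 has the widest gap (mean difference 1.30), ITGA2B has 1 high array at 11.32 apart from the other high arrays, and the DAZAP2 groups nearly touch.

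AZIN1 and BRF2 fell outside that rule because the probe sets concerned were not their brightest, and they were picked after their values were seen. AZIN1, which protects the polyamine enzyme ornithine decarboxylase from degradation, measured 9.29, 9.19, 9.10, 9.21 and 9.23 in the low arrays and 8.11, 8.32, 7.89, 8.37 and 8.91 in the high arrays on 1 probe set (-0.88, SE 0.18). The low arrays were tightly grouped, the high arrays all lay below them, and the brighter AZIN1 probe set differed in the same direction by -0.80 (SE 0.26). BRF2, a factor of RNA polymerase III, differed by -0.75 (SE 0.16) on 1 probe set and by -0.17 on its brightest.

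The smallest p-values also fell on probe sets with no single gene name. The annotation of probe set Ssc.13780.11.S1_x_at lists more than 1 gene, among them SLA-1, a class I MHC gene of the pig. It measured 8.93, 9.29, 8.85, 9.53 and 7.37 in the low arrays and 12.55, 10.45, 11.41, 11.97 and 10.99 in the high arrays. The groups did not overlap, and the difference was 2.68 (SE 0.45; 6.40-fold). Several others split as EIF1AY did. The unnamed Ssc.7473.1.A1_at measured 9.47 in low replicate 1 and 3.09 to 3.54 in the other low arrays, against 9.66 to 10.94 in the high arrays. Ssc.16426.1.S1_at, annotated to EIF2S3 and another gene, measured 9.80, 2.60 to 3.35 and 9.96 to 11.08 in the same order. Ssc.27304.1.S1_at, whose annotation repeats TMSB4X, measured 14.13, 7.24 to 8.05 and 13.75 to 14.08. The unnamed Ssc.4897.1.A1_at ran the other way, at 4.39, 7.11, 7.36, 6.81 and 5.47 in the low arrays and 3.63 to 4.21 in the high arrays. Without low replicate 1, 7 probe sets passed an adjusted p of 0.05 in limma, 5 higher and 2 lower. EIF1AY itself was 1 of the 5, with a difference of 4.82 and an adjusted p of 2.86e-05. The probe sets just named with this split, in either direction, were all among the 7.

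The genes closest to the measured traits did not separate the groups. CD4 measured 4.45, 3.99, 4.20, 4.58 and 4.81 in the low arrays and 4.90, 4.84, 4.62, 4.33 and 4.07 in the high arrays. The groups overlapped over most of their range, below the median probe set in each array. The difference was 0.15 with a 95% interval from -0.30 to 0.60, and the second CD4 probe set gave 0.12. IFNA1, an IFN-alpha ligand, averaged 6.57 ± 0.24 over the low arrays and 6.38 ± 0.32 over the high arrays, a difference of -0.19 (SE 0.18).

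Of the 11 measured genes of 13 on the list of trait genes, 9 were higher in the high group, with a median difference of 0.25, beside 0.02 over all genes. Over 23 other settings that median ran from 0.05, with EIF1AY as a covariate, to 0.34. It was 0.13 without low replicate 5 and 0.09 in the higher spike-in class. TYK2 was the one with an unadjusted p under 0.05 (9.09% of the list, beside 2.71% of all genes). It measured 10.79, 10.87, 10.39, 10.44 and 10.55 in the low arrays and 11.42, 10.99, 11.02, 10.98 and 10.55 in the high arrays. Of the high arrays, 4 lay above every low array, and high replicate 5 did not (difference 0.39, SE 0.17). Of its 3 dimmer probe sets, 1 differed in the opposite direction, by -0.41 (SE 0.14), with every high array below every low array. That probe set averaged 4.66 over the low arrays and 4.25 over the high arrays, below the median level. The others differed by 0.34 and 0.52. The receptor chains IFNAR1 (0.19, SE 0.22) and IFNAR2 (0.28, SE 0.20) and the transducers STAT2 (0.49, SE 0.32) and IRF9 (0.35, SE 0.27) were all within 2 SE, as was the kinase JAK1 (-0.05, SE 0.17). Low replicate 1 had the highest low value of IFNAR1, IFNAR2, STAT2 and IRF9. With EIF1AY as a covariate, a setting that rests largely on low replicate 1, these 4 differences turned negative, from -0.20 for IFNAR2 to -0.44 for STAT2.

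Interferon-stimulated genes mostly measured higher in the high group. Of 26 measured genes, 23 were higher, with a median difference of 0.37, and 4 had an unadjusted p under 0.05 in that direction (15.4% of the list, beside 2.71% of all genes). These 4 were IFIT3, IFIT1 and IFIT2, which encode antiviral proteins, and IRF1, a transcription factor of the interferon response. IFIT3 measured 12.22, 12.36, 10.18, 11.22 and 11.21 in the low arrays and 13.11, 12.72, 12.78, 12.15 and 12.12 in the high arrays. The 3 highest arrays were all high ones, but high replicates 4 and 5 lay below low replicates 1 and 2, and the difference was 1.14 (SE 0.38; 2.20-fold). IFIT1 measured 12.90, 12.79, 11.50, 12.35 and 11.38 in the low arrays and 13.50, 13.21, 13.22, 12.63 and 12.84 in the high arrays, a difference of 0.90 (SE 0.31). Its other 2 probe sets differed by only 0.27 and 0.26.

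IFIT2 differed by 0.70 (SE 0.30), and its 2 dimmer probe sets by 1.54 and 1.23. IRF1 measured 12.54, 11.82, 11.97, 12.46 and 11.61 in the low arrays and 12.48, 13.05, 12.40, 12.20 and 13.11 in the high arrays. Only high replicates 2 and 5 exceeded every low array (difference 0.57, SE 0.24). OAS1, an antiviral enzyme gene picked after its values were seen for its spread, measured 12.86, 6.22, 8.08, 3.98 and 3.73 in the low arrays and 12.46, 6.34, 11.56, 4.83 and 10.15 in the high arrays. Each group ran from below 5 to above 12, and the difference of 2.09 had an SE of 1.88.

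The interferon list depended on which low arrays were counted. Its mean over genes was 10.48, 9.52, 8.81, 8.89 and 8.65 in the low arrays and 10.48, 10.19, 9.99, 8.70 and 9.58 in the high arrays. Low replicate 1 equalled the highest high array, and high replicate 4 was below 4 of the 5 low arrays. The list median was 0.63 without low replicate 1, but -0.72 with EIF1AY as a covariate and -0.60 among the 6 arrays with the higher EIF1AY level, where low replicate 1 was the lone low array. In those last settings the differences shrank, to 0.20 and 0.36 for IFIT3, 0.06 and 0.18 for IFIT1, 0.26 and 0.39 for IFIT2, and 0.10 and 0.11 for IRF1. The sensors and adaptors that induce interferon had a median of 0.10 (9 of 13 higher), and the interferon ligands and signalling genes 0.12 (10 of 18 higher).

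**Figure D3:**
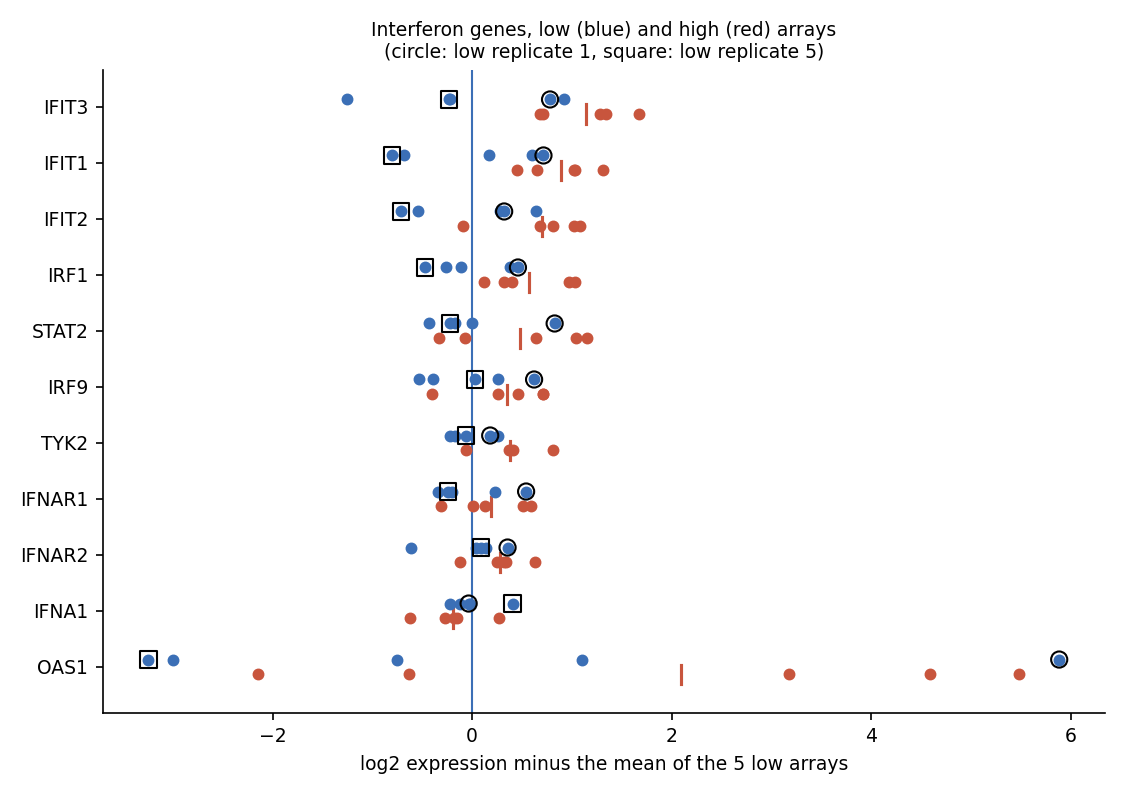
Log2 expression of interferon-stimulated, signalling, receptor and ligand genes, each array set against the gene's mean over the 5 low arrays, with low arrays in blue, high arrays in red and a short red bar at the high mean; a circle marks low replicate 1 and a square low replicate 5. IFIT3 has the largest difference of the first 10 genes (1.14), low replicate 1 sits among the high arrays for STAT2 and IRF9, and OAS1 spans both ends in each group.

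Genes of naive and memory T cells were higher in the high group for 10 of 11 measured, with a median of 0.44, and 2 had an unadjusted p under 0.05 (18.2% of the list, beside 2.71% of all genes). CCR7, the receptor that brings naive T cells into lymph nodes, measured 6.70, 6.80, 6.90, 7.10 and 6.64 in the low arrays and 7.41, 7.31, 6.87, 7.17 and 7.32 in the high arrays. All high arrays but replicate 3 exceeded every low array, and the difference was 0.39 (SE 0.15). SATB1, a chromatin organiser of developing and naive T cells, measured 7.56, 8.58, 8.63, 7.36 and 6.60 in the low arrays and 8.52, 8.59, 8.21, 9.05 and 8.63 in the high arrays. The high arrays matched low replicates 2 and 3 and stood above the other 3, for a difference of 0.85 (SE 0.36), or 0.57 without low replicate 5. The dimmer SATB1 probe sets differed by 0.49, 0.56 and -0.24.

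LEF1, which acts in naive T cells downstream of Wnt signals, differed by 0.86 (SE 0.51), with low replicates 1 (7.94) and 5 (6.79) well below the remaining arrays (9.20 to 9.91). It was 0.39 without low replicate 5 and 1.76 with EIF1AY as a covariate, a value that rests largely on low replicate 1. FOXO1, which maintains naive T cells, differed by 0.58 (SE 0.29), or 0.36 without low replicate 5, but a dimmer FOXO1 probe set differed by only -0.005. The list median stayed positive in 23 of 23 other settings, from 0.30 to 0.58. These settings reuse the same arrays and are not independent checks. Some, such as the replicate block and the variance settings, cannot change a difference. It was 0.30 without low replicate 5 and 0.33 in the higher spike-in class.

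The general T cell markers behaved less evenly. All 7 measured genes of the list were higher in the high group (median 0.43), none with an unadjusted p under 0.05. CD3E measured 8.81, 9.34, 10.39, 9.39 and 6.92 in the low arrays and 9.77, 10.08, 9.37, 8.75 and 9.28 in the high arrays. The low group held both the highest and the lowest array. Without low replicate 5 the list median was 0.02, CD3E differed by -0.03 and CD3G by -0.15.

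Among helper and regulatory T cell genes, 5 of 12 were higher (median -0.09), and 2 of them had an unadjusted p under 0.05 (16.7% of the list, beside 2.71% of all genes). The genes described next were all among the 5 higher ones. The 7 lower ones included RORA (-0.26, SE 0.63), STAT6 (-0.16, SE 0.30) and FOXP3 (-0.14, SE 0.15). GATA3, the transcription factor of Th2 cells, measured 6.99, 8.16, 7.93, 7.80 and 6.17 in the low arrays and 8.31, 8.49, 8.34, 8.08 and 7.75 in the high arrays. Low replicates 1 and 5 were lowest, and the difference of 0.79 (SE 0.34) was 0.48 without low replicate 5. Its 3 dimmer probe sets differed by 0.52, 0.31 and -0.05. CD40LG, through which helper T cells license B cells, measured 4.74, 4.81, 4.98, 4.24 and 5.28 in the low arrays and 6.35, 5.17, 6.20, 4.76 and 5.17 in the high arrays. High replicates 1 and 3 carried its difference of 0.72 (SE 0.32). The Th1 factor STAT4 differed by 0.66 (SE 0.40), or 0.28 without low replicate 5, the checkpoint receptor CTLA4 by 0.23 (SE 0.21), and a dimmer STAT4 probe set by -0.30.

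In T cell receptor signalling, 11 of 14 genes were higher (median 0.19) and 1 had an unadjusted p under 0.05 (7.14%, beside 2.71% of all genes); the median was 0.06 without low replicate 5. That gene was DGKA, which removes diacylglycerol and so restrains T cell activation, at 6.29, 7.78, 7.67, 7.33 and 6.50 in the low arrays and 8.25, 7.90, 7.66, 7.62 and 7.88 in the high arrays. Low replicates 1 and 5 again lay below the others, and the difference was 0.75 (SE 0.29). The kinase FYN differed by 0.61 (SE 0.34), or 0.31 without low replicate 5, the phosphatase PTPN6 by 0.53 (SE 0.26) and the calcium channel ITPR1 by -0.22 (SE 0.14).

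Cytotoxic and NK cell genes ran the other way, with 4 of 13 higher and a median of -0.22, and none had an unadjusted p under 0.05. CCL5, a chemokine of memory and cytotoxic lymphocytes, measured 11.90, 11.49, 13.58, 12.56 and 11.15 in the low arrays and 10.34, 11.44, 11.48, 10.73 and 12.16 in the high arrays. The groups overlapped, the top 2 arrays were low ones and the bottom 2 high ones, and the difference was -0.91 (SE 0.46). The granzyme GZMH differed by -0.76 (SE 0.55), the adaptor HCST by -0.24 (SE 0.19) and the Fc receptor FCGR3A by 0.19 (SE 0.21).

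IL10, the main anti-inflammatory cytokine, was lower in the high group. It measured 9.54, 7.67, 9.52, 9.07 and 9.08 in the low arrays and 7.68, 8.08, 8.10, 7.89 and 7.84 in the high arrays. Every array but low replicate 2 kept to its side of a gap between 8.10 and 9.07, and low replicate 2 lay at the level of the high group. The difference was -1.06 (SE 0.31; 2.08-fold lower; limma, unadjusted p = 0.0057, adjusted p = 0.971). It was -1.45 in the higher spike-in class and -1.62 among the arrays with the higher EIF1AY level. In the latter, low replicate 1 was the lone low array. Both settings leave out low replicate 2, which by itself makes the difference larger. Without low replicate 1 the difference was -0.92, and over 22 other settings, that one included, it ran from -1.64 to -0.91. The rest of the interleukin 10 list did not follow. Of the 9 genes of the list, 4 were higher, and the list median was -0.0013. TGFB1 differed by 0.42 (SE 0.29) and SOCS3, an inhibitor of cytokine signalling, by 0.17 (SE 0.15).

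**Figure D4:**
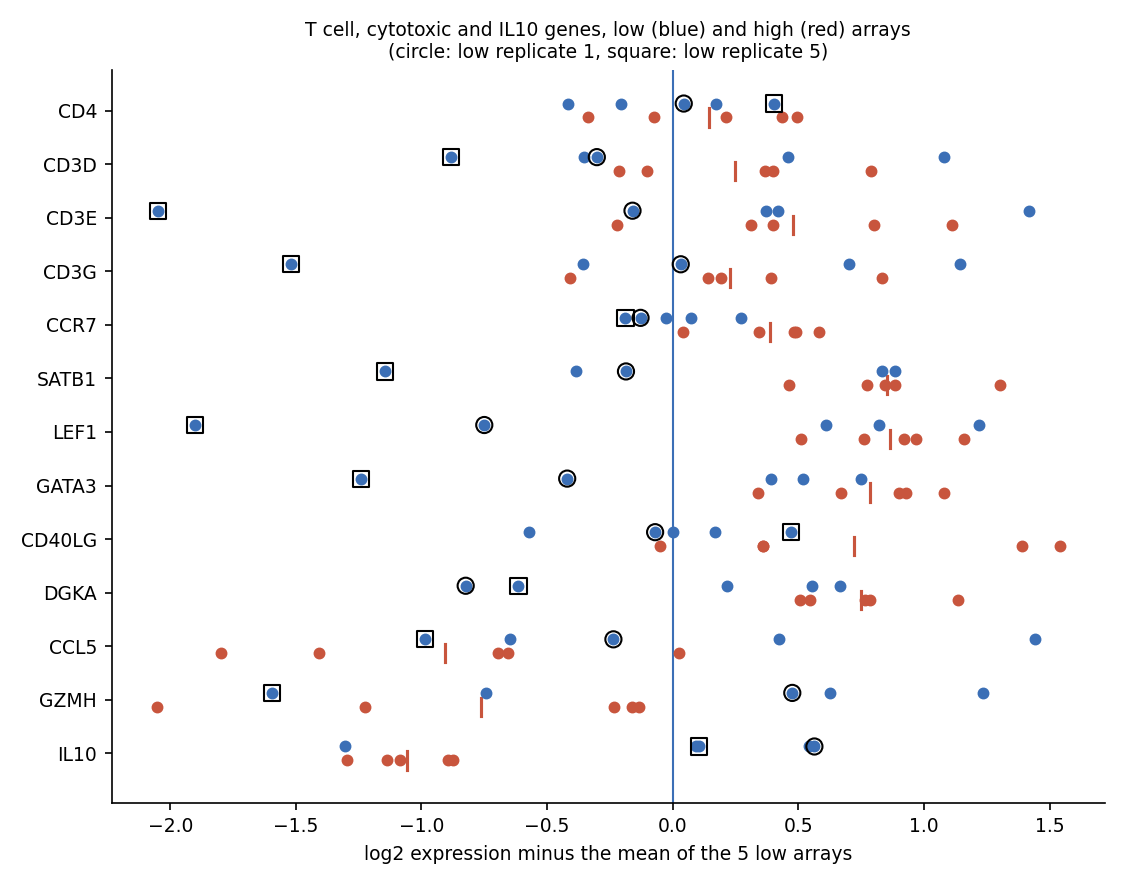
Log2 expression of CD4, T cell, cytotoxic and IL10 genes, each array set against the gene's mean over the 5 low arrays, with low arrays in blue, high arrays in red and a short red bar at the high mean; a circle marks low replicate 1 and a square low replicate 5. Low replicate 5 is the lowest array for CD3E (6.92), LEF1 (6.79) and GATA3 (6.17), and IL10 separates 4 low arrays from the other 6.

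Platelet and megakaryocyte genes had the highest list median, 0.69, although only 7 of 11 were higher. ITGA2B, already named above from the same values, alone had an unadjusted p under 0.05 (9.09% of the list, beside 2.71% of all genes). ITGB3, the partner chain of ITGA2B, differed by 0.72 (SE 0.39), the adhesion receptor SELP by 0.70 (SE 0.35) and the platelet chemokine PPBP by 1.02 (SE 0.58). PPBP measured 10.43, 10.19, 8.43, 9.59 and 11.22 in the low arrays and 11.99, 9.14, 11.65, 11.20 and 10.99 in the high arrays. Low replicate 5 reached the level of the high group and high replicate 2 that of the low group. The list median was 0.19 when all probe sets of a gene were averaged and 0.10 with EIF1AY as a covariate.

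Red cell genes were higher for 9 of 15 (median 0.32), 2 of them with an unadjusted p under 0.05 (13.3%, beside 2.71% of all genes). BPGM, which makes the 2,3-bisphosphoglycerate that loosens oxygen from haemoglobin, measured 7.19, 10.20, 8.06, 8.60 and 9.12 in the low arrays and 10.19, 9.70, 9.69, 9.42 and 10.14 in the high arrays. Only low replicate 2 reached the high arrays, and the difference was 1.20 (SE 0.45). It was 2.61 with EIF1AY as a covariate, a value that rests largely on low replicate 1, the lowest array. The haem enzymes UROD and FECH differed by 0.51 (SE 0.23) and 0.72 (SE 0.53), and the globin HBM by 0.95 (SE 0.76). Without low replicate 1, the array with the lowest red cell mean (6.92), the list median was 0.07.

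B cell and plasma cell genes were higher for 6 of 8 (median 0.35). SPIB, a factor of B cells and plasmacytoid dendritic cells, measured 7.67, 7.17, 7.22, 7.58 and 7.04 in the low arrays and 8.00, 7.92, 8.33, 7.34 and 7.65 in the high arrays. Of the high arrays 3 lay above every low array (difference 0.51, SE 0.20). With EIF1AY as a covariate it was 0.0028, and 0.18 in the 6 arrays with the higher EIF1AY level. CD38 differed by 0.81 (SE 0.38), BLNK by 0.59 (SE 0.53) and CD79B by 0.40 (SE 0.45). Without low replicate 5, CD38 differed by 0.40, BLNK by 0.08, and the list median was -0.03.

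Myeloid lists sat close to 0, with medians of -0.06 for monocyte genes (5 of 15 higher) and -0.06 for neutrophil genes (6 of 13 higher). In the 6 arrays with the higher EIF1AY level these medians were -0.523 and -0.998, with low replicate 1 as the lone low array. The dendritic cell list had a median of 0.20 (7 of 10 higher), which was 0.01 without low replicate 5. The neutrophil list mean was 9.14 in low replicate 1 and 9.40 in low replicate 5, against 7.51 to 7.98 in the other low arrays and 7.88 to 8.62 in the high arrays. PGLYRP1, a neutrophil granule protein that binds bacterial peptidoglycan, differed by -0.93 (SE 0.41), with low replicate 5 at 8.22 and every other array at 6.38 or less, and by -0.50 without that array.

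Among housekeeping and metabolic lists, 57 of 59 ribosomal protein genes were higher, none with an unadjusted p under 0.05, with a median of 0.15 that became -0.01 without low replicate 5. Class II antigen presentation genes were higher for 14 of 17 (median 0.23) and class I genes for 11 of 15 (median 0.13), again with none under that p. Without low replicate 5 these medians were -0.10 and -0.01. The SLA-1 probe set Ssc.13780.11.S1_x_at described above lists more than 1 gene and so was not counted among the class I genes. BAG3, a co-chaperone induced by stress, measured 9.02, 8.25, 8.52, 8.07 and 8.57 in the low arrays and 7.13, 7.34, 7.33, 8.14 and 8.08 in the high arrays. High replicates 1 to 3 lay below every low array, for a difference of -0.88 (SE 0.24), while the heat shock list as a whole had a median of 0.14 (15 of 21 higher). DNAJB9, a chaperone of the endoplasmic reticulum, differed by -0.56 (SE 0.19).

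The lipid metabolism list had 18 of 30 genes higher and a median of 0.08. HMGCS1, an enzyme of cholesterol synthesis, differed by 0.92 (SE 0.39), and SCD, which makes monounsaturated fatty acids, by 0.63 (SE 0.27), whereas PLIN2 was lower. HMGCS1 measured 5.87, 7.06, 6.63, 6.61 and 4.63 in the low arrays and 6.85, 6.75, 7.44, 7.24 and 7.10 in the high arrays. Low replicates 1 and 5 were lowest, and without low replicate 5 the difference was 0.54. The muscle-type phosphofructokinase PFKM of glycolysis differed by 0.99 (SE 0.38), with high replicate 3 the highest array at 7.29, and the respiratory chain subunit NDUFB9 by -0.42 (SE 0.16).

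The lists of respiratory chain (38 of 58 higher, median 0.05), proteasome (14 of 29, -0.01), cell cycle (12 of 25, -0.01), growth hormone and IGF axis (5 of 16, -0.05), apoptosis (6 of 14, -0.05) and endoplasmic reticulum folding genes (8 of 20, -0.03) had medians near that of all genes. Inflammatory cytokine (14 of 22, 0.15), early stress (11 of 20, 0.13), glycolysis (12 of 21, 0.13) and chemokine and homing receptor genes (8 of 12, 0.20) had slightly higher ones.

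**Figure D5:**
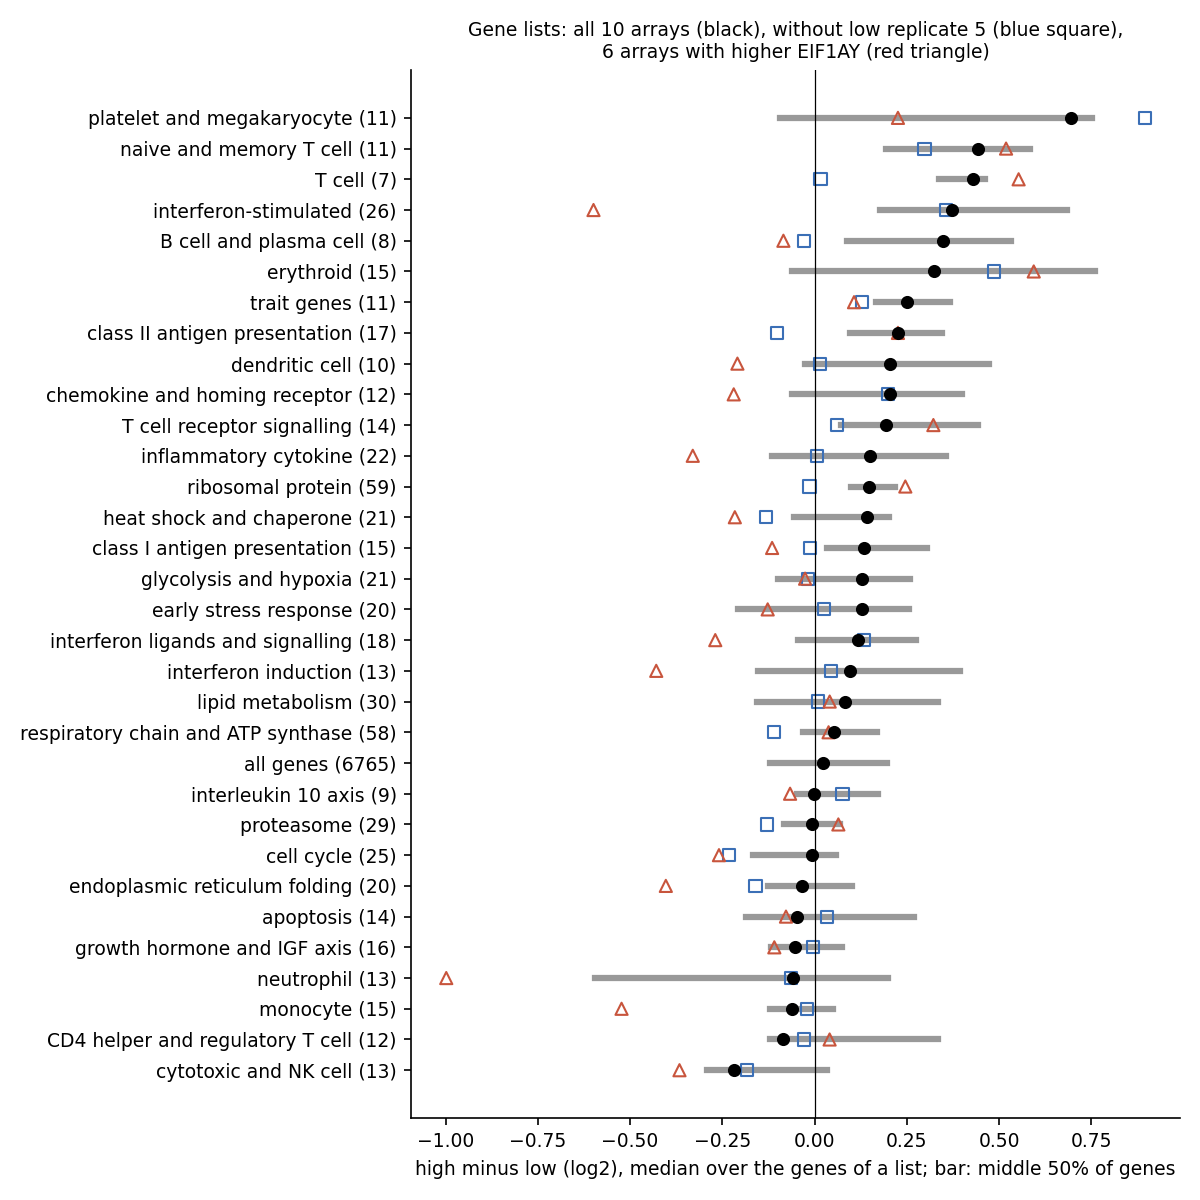
Median difference (log2, high minus low) over the measured genes of each list, with the number of genes in brackets and a grey bar over the middle 50% of genes; black points use all 10 arrays, blue squares leave out low replicate 5, and red triangles use the 6 arrays with the higher EIF1AY level. The platelet list has the highest median (0.69) and the cytotoxic list the lowest (-0.22), the interferon-stimulated list moves from 0.37 to -0.60 in the 6 arrays, and the T cell list moves to 0.02 without low replicate 5.

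By the correlation rule given at the start, the same pigs served in other trait pairs, so the pairs are not independent. Of the high pigs, 3 were also in the high group for IFN-alpha with body weight, and 3 in the high group for IL-10 with body weight. For CD4+ with IL-10, 2 of the low pigs and 2 of the high pigs were in the high group. All 5 low pigs carried a high label in at least 1 other pair. Set side by side, IL10 differed by -1.06 here, 0.72 for CD4+ with IL-10, 1.22 for CD4+ with body weight, 0.83 for CD8+ with IFN-alpha and 0.09 for IFN-alpha with body weight. CCL5 differed by -0.91, 0.45, 1.33, 0.70 and -0.22 in the same order. The differences of IFIT3 were 1.14, -0.79, -0.39, -0.14 and 0.55, and those of WNK4 were 1.30, -0.15, -0.75, -0.11 and 0.66. IL10 was lower in the high group here and not in the 4 pairs set beside it. WNK4 and IFIT3 were higher here and for IFN-alpha with body weight. In that pair the SEs were 0.54 for IL10, 0.44 for WNK4 and 0.38 for IFIT3, so those directions are uncertain. The genes were named for their values here, the remaining trait pairs were not set beside it, and whether the pairs differ was not tested.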

How the data were processed

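The values were taken from the series matrix of the Affymetrix porcine arrays, which holds the log2 expression per probe set that the authors deposited; the tools RMA and limma are named per the submitters' processing notes, with versions and settings not given in the sources used here. Array medians were close (5.572 to 5.645), and no further normalization was applied. Groups came from the sample titles. High minus low was fitted over the 10 arrays with limma 3.58.1 (lmFit, eBayes) in R 4.3.3, Benjamini-Hochberg adjusted over 23999 probe sets; the fit was tested on simulated data, where 8 unchanged probe sets were called. Array data carry no read depth, so the number of arrays limits the precision. P-values set each difference against the spread between these pigs, as moderated over probe sets by eBayes.

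A gene was read through its probe set with the highest mean. Genes were named as follows: those at or above the median level with an adjusted p under 0.05, filled up to 12 per direction with non-overlapping genes of smallest p (7 qualified in each), all measured trait genes, and up to 4 genes of smallest p per list. From lists outside lymphocytes, platelets, red cells, interferon and interleukin 10, only genes with an unadjusted p under 0.05 were kept, a narrowing made after values were seen. The comparison, the members and the 31 lists were chosen with earlier results of these data known. Figures used Python and matplotlib.

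Alternatives were another normalization, centring, a filter on dim probe sets, other variance settings, array weights, a replicate block, spike-in class, EIF1AY, actin and cell makeup covariates, other thresholds, and each array left out. Replicate numbers did not pair the samples.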

Additional observations from a re-analysis of the deposited data

Results flagged for a closer look

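In 200 sets of 5 arrays (each named gene and list mean in each group), 12 had 1 array whose gap to the nearest other took up more of the range than Dixon's 95% value allows (6%; chance alone flags about 1 in 20). Low replicate 5 was the separate array in 4 of them: CD38 at 4.80 (the other low arrays 6.48 to 7.06), and the list means of B cell and plasma cell genes at 7.17, class I antigen presentation at 10.26 and lipid metabolism at 6.97. Low replicate 1 was apart for EI24 at 5.59 and, upward, for the chemokine and homing receptor mean at 8.50. Low replicate 2 was apart for IL10 at 7.67, where the other low arrays began at 9.07. In the high group, replicate 1 was apart for ITGA2B at 11.32, replicate 2 for FECH at 10.80 and PGLYRP1 at 6.08, and replicate 4 for PAQR6 at 6.07 and the T cell receptor signalling mean at 7.68.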

How the results depend on the processing

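No probe set passed the adjusted threshold in most settings, including an adjusted p of 0.1 (0 higher, 0 lower). Exceptions were EIF1AY as a covariate (1 higher, 3 lower), erythroid and neutrophil means as covariates (5 and 2), the 6 arrays with higher EIF1AY, a setting added after seeing the data in which the lone low array is assumed to vary like the others (1 and 14), and leaving out arrays in turn (0 to 5 higher and 0 to 2 lower, the upper values without low replicate 1). At an unadjusted p of 0.05, the 493 higher and 436 lower probe sets became 1073 and 939 with array weights, 827 and 901 with the cell makeup covariates, 1070 and 902 in the 6 arrays, 799 higher in the higher spike-in class, and 121 lower after the filter on dim probe sets, which leaves fewer probe sets to test. A p under 0.01 with a 1.5-fold change left 66 and 25. Leaving out arrays gave 252 (without high replicate 1) to 886 (without low replicate 2) higher and 228 to 798 lower from the same 2 arrays; without low replicate 3 there were 752 lower, and without high replicate 3 309 higher and 268 lower. With the replicate number as a block, 414 were higher and 314 lower, with none past the adjusted threshold; same-numbered arrays deviated with correlations of 0.08, -0.54, 0.22, -0.05 and -0.28, so the numbers do not pair the pigs.

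Of 1514 gene values under an alternative, 1486 kept their direction, 28 reversed and 0 passed an adjusted p of 0.05. The alternatives reuse the same arrays, and some change only the variance, so these counts are not independent checks. A gene named for non-overlapping groups cannot reverse when 1 array is left out. With EIF1AY as a covariate and in the 6 arrays, the reversed values were IFNAR1 -0.396 and -0.353, STAT2 -0.436 and -0.34, IRF9 -0.365 and -0.273, IFNAR2 -0.198 and -0.0783, JAK1 0.42 and 0.348, FCGR3A -0.232 and -0.158, and SOCS3 -0.107 and -0.0663. Array weights reversed CD3D (-0.022), CD3G (-0.247) and CD79B (-0.0325), and the higher spike-in class the same genes (-0.0455, -0.388 and -0.0158). Without low replicate 5, CD3E (-0.0317), CD3G (-0.153), FCGR3A (-0.00174) and CD79B (-0.0196) reversed. JAK1 reversed without low replicates 2 (0.00234) and 3 (0.0406) and high replicate 1 (0.0344), and HBM with the cell makeup covariates (-0.212).

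Of 713 list medians, 36 moved. With EIF1AY as a covariate and in the 6 arrays these were neutrophil (-1.3 and -0.998), interferon-stimulated (-0.717 and -0.599), monocyte (-0.547 and -0.523), interferon induction (-0.406 and -0.429), endoplasmic reticulum folding (-0.399 and -0.403), interferon ligands and signalling (-0.29 and -0.269), heat shock (-0.228 and -0.216), dendritic (-0.199 and -0.209), chemokine (-0.153 and -0.219) and platelet genes (0.0996 and 0.226). The covariate alone moved inflammatory (-0.398), early stress (-0.304), B cell (-0.129) and lipid genes (-0.0551), and the 6 arrays alone glycolysis (-0.0256). The higher spike-in class moved endoplasmic reticulum folding (-0.325), interleukin 10 axis (0.153), helper T cell (0.0833), lipid (-0.0427) and glycolysis genes (-5.14e-05). Array weights moved helper T cell (0.104) and interleukin 10 axis genes (0.152), the cell makeup covariates the latter (0.228), and averaging probe sets the platelet list (0.191). Leaving out arrays moved the interleukin 10 axis (0.194 without low replicate 1) and glycolysis (-0.0167 without low replicate 5). Over the arrays left out in turn, the differences ran from -0.0317 to 0.835 for CD3E, -0.153 to 0.511 for CD3G, -0.147 to 0.0406 for JAK1, -0.00174 to 0.272 for FCGR3A and -0.0196 to 0.641 for CD79B, and the interleukin 10 axis median from -0.12 to 0.194. The cause was not tested for any of these values.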
